A study of Mus musculus with 9 samples.

Results

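The BCL2 family genes described here are 10 genes of the mitochondrial route to cell death: Bcl2, Bcl2l1, Mcl1, Bax, Bak1, Bcl2l11, Bbc3, Pmaip1, Bid and Bmf. They were named by symbol, matched to NCBI gene IDs, and make up 10 of the 27179 genes in the deposited count table. All 10 passed the filter on low counts, which left 15910 genes for testing.

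RNA was sequenced in bulk from 3 populations of luminal epithelial cells, the cells that line the ducts and alveoli, sorted by flow cytometry from mammary glands of adult mice. Lineage-positive cells had been removed and the rest split by the surface receptor CD14 and by PR-cre/YFP, a yellow fluorescent reporter tied to Cre from the progesterone receptor gene. Hormone receptor-negative cells, named HR- LP in the labels, were CD14+ and YFP-, the cells named HR+ LP were CD14+ and YFP+, and the cells named ML were CD14- (the labels do not spell out LP or ML). The sample labels give ML as YFP+, whereas the design text gives it as YFP-. Each population had 3 libraries, and every animal of the sort is described only as an adult carrying PR-cre/YFP, with no other allele or treatment and no exact age. Whether the libraries of a population came from separate mice is not stated, so p-values measure the spread between these libraries, which may be technical.

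Proteins of the family decide whether the outer mitochondrial membrane stays closed. BCL2, BCL-XL (from Bcl2l1) and MCL1 hold the pore-forming effectors BAX and BAK (from Bak1) in check, and the BH3-only proteins BIM (from Bcl2l11), PUMA (from Bbc3), NOXA (from Pmaip1), BID and BMF bind the guards or the effectors and tip them towards release of cytochrome c. In the mammary gland the family is best known from involution, the wave of alveolar cell death after weaning, and MCL1 is a short-lived protein needed for the upkeep of the alveolar epithelium. The counts are per gene, so the splice forms of Bcl2l1, Mcl1 and Bcl2l11, some of which differ in activity, were not separated, and RNA levels do not give protein levels or the rate of cell death.

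The libraries held between 27219103 and 108119756 counts, and between 15239 and 17735 genes were detected in each. Luminal keratin and junction genes were high throughout, with a summed level of 12450 to 16680 CPM (counts per 1e+06 of the TMM-scaled library total) over the 9 libraries. All 6 hormone-sensing markers were higher in HR+ LP and in ML than in HR- LP, with sums of 199.7 to 471.8 CPM in HR- LP, 5862 to 6926 CPM in HR+ LP and 8465 to 11060 CPM in ML. All 5 alveolar progenitor markers were lower at each step from HR- LP to HR+ LP to ML, with sums of 8888 to 10900, 2922 to 3196 and 145.2 to 259.6 CPM. Markers of immune cells, which also express Bcl2 and Bcl2a1 genes, summed to 1.038 to 2.355 CPM over the 9 libraries. Basal markers summed to 28.09 to 66.88, 24.35 to 38.84 and 24.70 to 39.06 CPM, endothelial markers to 5.761 to 12.10, 40.24 to 62.85 and 59.36 to 80.44 CPM, and fibroblast markers to 73.74 to 120.9, 61.29 to 267.5 and 106.2 to 317.6 CPM in HR- LP, HR+ LP and ML. Of the basal markers, 0 were called higher and 1 lower in HR+ LP than in HR- LP, and 1 and 2 in ML. Of 5 tested immune markers, 1 was called higher and 0 lower in each of these comparisons. In the endothelial and the fibroblast list, 1 gene each was called higher in HR+ LP and in ML than in HR- LP, Vwf of the 5 endothelial and Dcn of the 6 fibroblast markers. Of the other fibroblast markers, 5 were called lower in HR+ LP and 3 in ML than in HR- LP, and no other endothelial marker was called. The part of such cells in the results was not tested. On the second principal component of log2 CPM, with 10.1% of the variance, HR- LP replicate 3 was at -91.6 and the other HR- LP libraries at 15.8 and 39.5. Without it every call of a member given below was kept.

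The sequences before the annotated starts are shown for the 3 members that were lower at each step, Bcl2, Mcl1 and Bcl2l11, and for Bmf, the member with the largest rise. RefSeq windows (GRCm38.p6, the mm10 assembly) were taken for 9 of the 10 genes. Pmaip1 was left out of this part, so its window was not examined. Each line gives the 250 bases before a start, 5′ to 3′ on the gene's own strand, with matches to 7 short motifs on either strand in capitals.
Bcl2 (chr1:106714291-106714540, minus strand): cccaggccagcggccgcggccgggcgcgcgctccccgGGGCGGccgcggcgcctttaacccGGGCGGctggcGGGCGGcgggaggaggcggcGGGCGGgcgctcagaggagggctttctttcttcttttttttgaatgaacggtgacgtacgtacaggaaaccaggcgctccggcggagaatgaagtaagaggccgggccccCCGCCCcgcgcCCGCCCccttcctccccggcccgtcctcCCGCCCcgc
Mcl1 (chr3:95658471-95658720, plus strand): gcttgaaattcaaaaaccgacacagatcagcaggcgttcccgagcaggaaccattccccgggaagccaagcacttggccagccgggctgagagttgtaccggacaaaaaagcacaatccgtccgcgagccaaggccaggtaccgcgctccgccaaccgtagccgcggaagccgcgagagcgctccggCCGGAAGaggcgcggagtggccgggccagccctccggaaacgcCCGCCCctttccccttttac
Bcl2l11 (chr2:128125788-128126037, plus strand): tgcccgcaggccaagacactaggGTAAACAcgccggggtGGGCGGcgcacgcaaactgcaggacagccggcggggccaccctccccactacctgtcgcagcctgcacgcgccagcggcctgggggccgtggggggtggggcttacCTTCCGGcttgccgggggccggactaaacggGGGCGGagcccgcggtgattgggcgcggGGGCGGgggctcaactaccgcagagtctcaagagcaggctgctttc
Bmf (chr2:118549687-118549936, minus strand): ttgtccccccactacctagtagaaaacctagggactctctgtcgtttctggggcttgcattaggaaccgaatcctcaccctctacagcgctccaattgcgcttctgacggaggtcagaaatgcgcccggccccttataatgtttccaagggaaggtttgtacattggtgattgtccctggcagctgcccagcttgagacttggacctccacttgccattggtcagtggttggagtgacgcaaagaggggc
For Bcl2l11 and Bmf, which have more than 1 annotated start, the window farthest upstream is shown. The Mcl1 window lies inside the annotated span of the gene, before a start downstream of the span's first base.

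The motifs searched were STAT (TTCNNNGAA), forkhead (GTAAACA), AP-1 (TGANTCA), CRE (TGACGTCA), GC box (GGGCGG), E-box (CACGTG) and ETS (CCGGAAG). The Bcl2 window held 7 GC boxes and no other match. The Mcl1 window held 1 GC box and 1 ETS match, and the Bcl2l11 window 1 forkhead match, 3 GC boxes and 1 ETS match. The Bmf window held none of the 7. Among 32851 windows of this length from RefSeq, 32.74% held a GC box, 6.907% an ETS match, 3.166% a forkhead match, 7.02% a STAT match, 6.749% an AP-1 match, 6.021% an E-box and 1.546% a CRE. The Bcl2 window was also rich in CG pairs, with 36 of them and a GC content of 74.8%, against a median of 6 pairs and 52.4% over all windows, and 2.575% of windows held as many or more. GC content was 72.0% with 24 CG pairs for Bcl2l11, 64.4% with 26 for Mcl1 and 54.0% with 8 for Bmf. A match is a stretch of letters, not a bound site, and these data hold no measure of binding.

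From HR- LP to HR+ LP, the RNAs of both effectors and of Bmf rose while those of Bcl2, Mcl1 and Bcl2l11 fell, and Bcl2l1, Bbc3, Pmaip1 and Bid did not pass the test. Thus 6 of the 10 members were called, 3 higher and 3 lower (edgeR quasi-likelihood test, Benjamini-Hochberg adjusted p under 0.05), where 29.9% of all tested genes were called, 17.2% higher and 12.8% lower. From HR+ LP to ML, Bcl2, Mcl1 and Bcl2l11 fell again and no member rose (0 also at an unadjusted p under 0.05, by DESeq2 and by limma voom), so that 3 of 10 were called lower, where 6.79% of tested genes were called, 6.70% lower and 0.0943% higher. Between the ends, ML against HR- LP, the same 6 members were called in the same directions, 3 higher and 3 lower, where 44.6% of tested genes were called, 23.3% higher and 21.3% lower. The libraries of HR+ LP and HR- LP did not overlap for 6 members, 3 higher and 3 lower, where 43.9% of tested genes did not overlap, 24.4% higher and 19.5% lower. The counts were 1 higher and 3 lower for ML against HR+ LP (27.0% of tested genes, 10.5% higher and 16.5% lower) and 3 higher and 4 lower for ML against HR- LP (53.1%, 28.2% higher and 24.9% lower). The median log2 fold change over the 10 members was 0.09, -0.06 and 0.03 in these 3 comparisons, and 0.01, 0.01 and 0.03 over all tested genes. The comparisons share libraries in pairs, so their values are side by side and not independent.

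**Figure D1:**
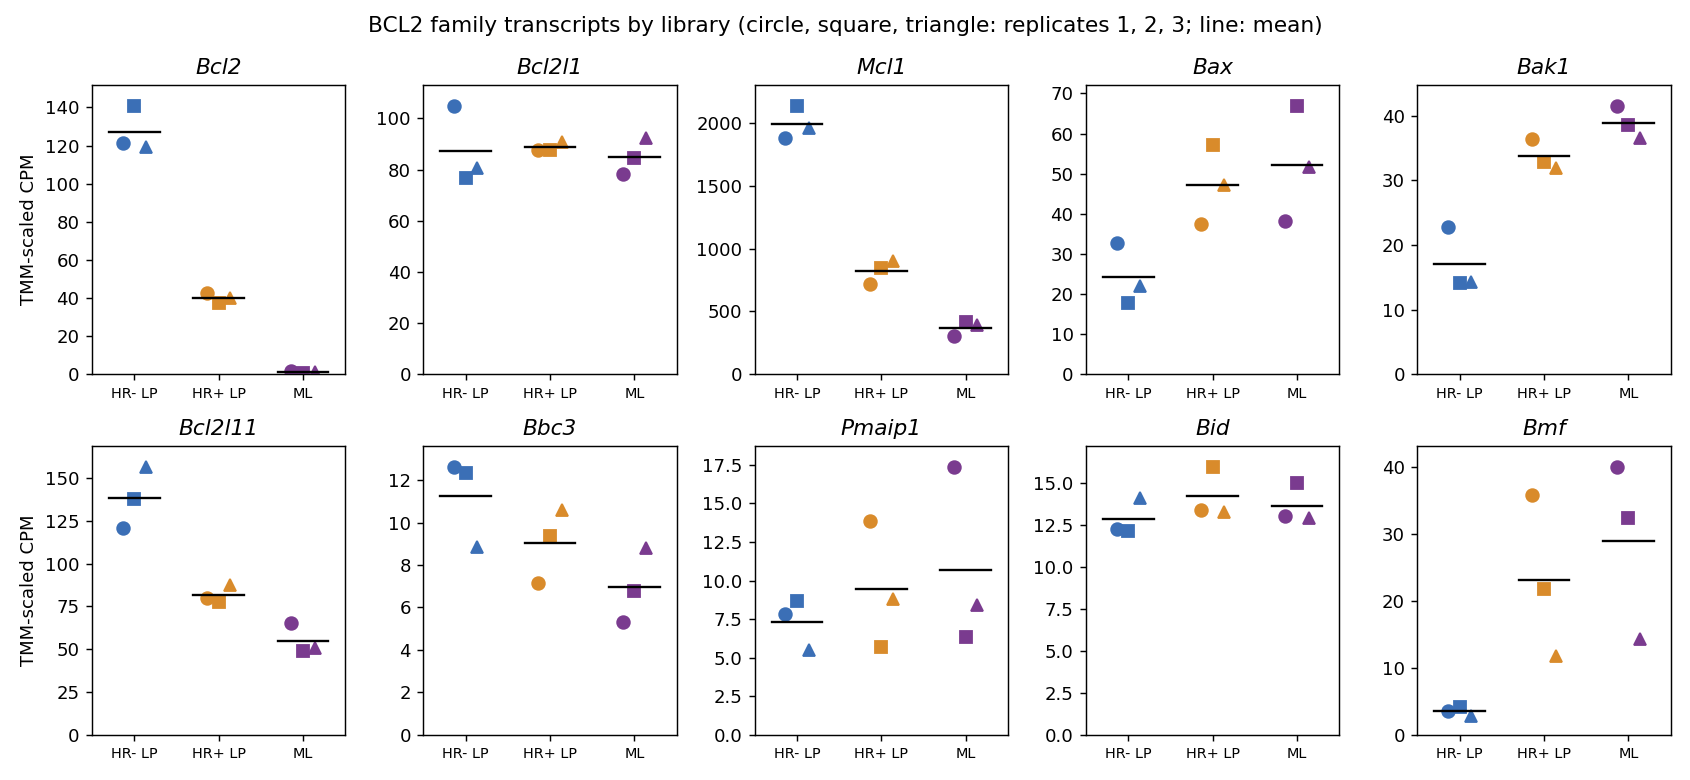
Each panel plots 1 gene, with TMM-scaled CPM on the vertical axis from 0 and the 3 populations on the horizontal axis. Points are libraries (circle, square and triangle for replicates 1, 2 and 3) and the line is the mean. Bcl2, Mcl1 and Bcl2l11 step down without overlap, from means of 127.1, 1991 and 138.3 CPM in HR- LP to 1.097, 369.6 and 54.8 CPM in ML, while Bcl2l1 is level near 85 to 89 CPM.

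Among the pro-survival genes, Bcl2 had the widest range. Bcl2 (gene ID 12043, chromosome 1, 106538176 to 106714290, mm10), the founding guard of the family, was at 121.3, 140.6 and 119.3 CPM in the HR- LP libraries, 42.56, 37.09 and 40.21 CPM in HR+ LP and 1.574, 0.468 and 1.248 CPM in ML. All HR- LP libraries were above all HR+ LP libraries, and these were above all ML libraries by more than 20 CPM. The ML values rested on 47, 22 and 53 counts. Of the 50-base windows of the Bcl2 transcripts, 5.25% also occur in at least 1 of 505 other genes. The mean was 127.1 ± 11.79 CPM in HR- LP, 39.95 ± 2.74 CPM in HR+ LP and 1.097 ± 0.5684 CPM in ML (SD, n = 3). Bcl2 was 3.18-fold lower in HR+ LP than in HR- LP (log2 fold change -1.67, SE 0.26, adjusted p = 0.000828, edgeR). From HR+ LP to ML it was 37.5-fold lower (log2 fold change -5.23, SE 0.33, adjusted p = 1.92e-06, edgeR), and 119.3-fold lower from HR- LP to ML (-6.90, SE 0.35, adjusted p = 1.07e-07). In bulk RNA, fewer cells with the transcript and less of it per cell cannot be told apart, here or for any other gene.

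Mcl1 (gene ID 17210, chromosome 3, 95656944 to 95663179), the guard with the shortest-lived protein, was the most abundant of the 10 in every population. It was at 1877, 2133 and 1962 CPM in HR- LP, 717.5, 848.2 and 902.4 CPM in HR+ LP and 304.9, 414.8 and 389.1 CPM in ML. The 3 populations did not overlap, and the 2 steps down were of like size. The means were 1991 ± 130.4, 822.7 ± 95.03 and 369.6 ± 57.49 CPM (SD, n = 3), 2.42-fold lower in HR+ LP than in HR- LP (log2 fold change -1.27, SE 0.16, adjusted p = 0.000169, edgeR). ML was a further 2.23-fold lower than HR+ LP (-1.15, SE 0.16, adjusted p = 0.000548, edgeR) and 5.38-fold lower than HR- LP (-2.43, SE 0.16, adjusted p = 6.7e-07).

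Mcl1 is also an early-response gene, and part of a list of 16 genes that respond to tissue dissociation was lower in the same comparisons. Of the 16, 9 were lower and 0 higher in HR+ LP against HR- LP, 7 and 0 in ML against HR+ LP, and 10 and 0 in ML against HR- LP. Of all tested genes, 12.8% were lower and 17.2% higher in the first comparison, 6.70% and 0.0943% in the second, and 21.3% and 23.3% in the third. By edgeR at an unadjusted p under 0.05, by DESeq2 and by limma voom, 0 of the 16 were higher in any of these comparisons. Their summed level was 63080, 56140 and 38700 CPM in HR- LP, 38310, 37740 and 32470 CPM in HR+ LP and 26150, 25320 and 18750 CPM in ML. Egr1, Fosb, Junb, Dusp1, Ier3, Nr4a1 and Zfp36 were called lower at each step, while Jun, Atf3, Dnajb1, Hsph1, Hspa1a and Hspa1b were called in none of the 3 comparisons. The part of the dissociation response in the differences of the members was not tested.

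Bcl2l1 (gene ID 12048, chromosome 2, 152758732 to 152833803), which encodes BCL-XL, was the guard with no called difference. It was at 104.7, 76.58 and 80.47 CPM in HR- LP, 87.54, 87.65 and 90.93 CPM in HR+ LP and 78.21, 84.31 and 92.14 CPM in ML. The 3 populations overlapped, and the highest value was HR- LP replicate 1. Means were 87.27 ± 15.26, 88.71 ± 1.929 and 84.89 ± 6.978 CPM (SD, n = 3). The log2 fold changes were 0.02 (SE 0.14, adjusted p = 0.918) for HR+ LP against HR- LP, -0.06 (SE 0.14, adjusted p = 0.96) for ML against HR+ LP and -0.04 (SE 0.14, adjusted p = 0.849) for ML against HR- LP, by edgeR. The gene overlaps Cox4i2 over 6308 bases in RefSeq, and Cox4i2 itself was counted at a mean of 3.208, 0.5248 and 0.04466 CPM in the 3 populations.

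**Figure D2:**
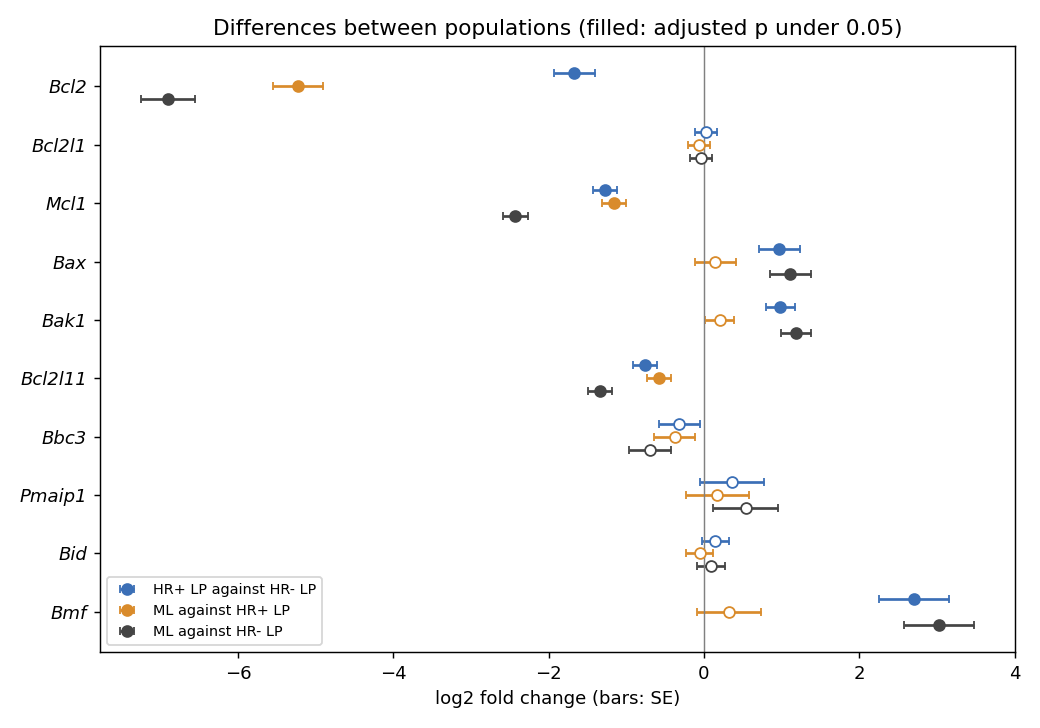
The horizontal axis is the log2 fold change from edgeR and each row is a gene, with blue for HR+ LP against HR- LP, orange for ML against HR+ LP and black for ML against HR- LP. Bars are SEs and filled points have an adjusted p under 0.05; Bcl2 reaches -6.90, Bmf 3.02, and the 3 points of Bcl2l1 and of Bid lie near 0.

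Both effector RNAs were about 2-fold higher in the 2 populations labelled YFP+. Bax (gene ID 12028, chromosome 7, 45461695 to 45466903), whose protein moves from the cytosol to mitochondria, was at 32.71, 17.83 and 21.90 CPM in HR- LP, 37.43, 57.03 and 47.23 CPM in HR+ LP and 38.09, 66.78 and 51.68 CPM in ML. Every HR+ LP and ML library was above every HR- LP library, while HR+ LP and ML overlapped. Means were 24.15 ± 7.692, 47.23 ± 9.8 and 52.18 ± 14.35 CPM (SD, n = 3). Bax was 1.96-fold higher in HR+ LP than in HR- LP (log2 fold change 0.97, SE 0.26, adjusted p = 0.0182, edgeR) and 2.16-fold higher in ML than in HR- LP (1.11, SE 0.27, adjusted p = 0.00566). ML and HR+ LP differed by 0.15 (SE 0.26, adjusted p = 0.947). The first of these calls was lost without HR- LP replicate 2 (log2 fold change 0.79, adjusted p = 0.0639) and without HR+ LP replicate 2 (0.81, adjusted p = 0.08). Of the 50-base windows of the Bax transcript, 8.51% also occur in the predicted gene Gm45808.

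Bak1 (gene ID 12018, chromosome 17, 27019812 to 27028627), the effector that sits in the mitochondrial membrane, was at 22.72, 14.18 and 14.28 CPM in HR- LP, 36.44, 32.92 and 31.92 CPM in HR+ LP and 41.47, 38.64 and 36.50 CPM in ML. The order HR- LP, HR+ LP, ML held with no overlap at either step, as for 6.91% of tested genes, although ML replicate 3 and HR+ LP replicate 1 were close. Means were 17.06 ± 4.906, 33.76 ± 2.373 and 38.87 ± 2.494 CPM (SD, n = 3). The rise from HR- LP was 1.98-fold in HR+ LP (log2 fold change 0.98, SE 0.19, adjusted p = 0.00306, edgeR) and 2.28-fold in ML (1.19, SE 0.19, adjusted p = 0.000466). The difference of 0.20 between ML and HR+ LP did not pass the test (SE 0.19, adjusted p = 0.83). Bak1 lies within the annotated span of Ggnbp1 and shares 17.1% of its 50-base windows with it. Ggnbp1 was counted at 14.62 ± 4.015, 11.49 ± 1.424 and 11.32 ± 0.5305 CPM, with no rise alongside Bak1.

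Among the BH3-only genes, Bcl2l11 and Bmf changed in opposite directions. Bcl2l11 (gene ID 12125, chromosome 2, 128126038 to 128162547), which encodes BIM, a binder of all the guards, was at 121.0, 137.4 and 156.3 CPM in HR- LP, 80.16, 77.49 and 87.54 CPM in HR+ LP and 65.22, 48.74 and 50.44 CPM in ML. The 3 populations did not overlap. Means were 138.3 ± 17.65, 81.73 ± 5.205 and 54.8 ± 9.064 CPM (SD, n = 3). Bcl2l11 was 1.69-fold lower in HR+ LP than in HR- LP (log2 fold change -0.76, SE 0.15, adjusted p = 0.0035, edgeR) and 2.52-fold lower in ML than in HR- LP (-1.34, SE 0.15, adjusted p = 3.61e-05). The 1.49-fold step from HR+ LP to ML was near the threshold (-0.58, SE 0.15, adjusted p = 0.0443). That call was lost without HR- LP replicate 2 (adjusted p = 0.0637), without HR+ LP replicate 1, 2 or 3 (0.118, 0.0998 and 0.187), without ML replicate 2 or 3 (0.228 and 0.19), and with scaling by DESeq2-type size factors in edgeR (0.0748) or by library totals alone (0.103). An order without overlap from HR- LP down to ML was shared by Bcl2, Mcl1 and Bcl2l11, and by 11.1% of tested genes.

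Bmf (gene ID 171543, chromosome 2, 118528757 to 118549686), a BH3-only gene whose protein is held on the actin cytoskeleton and released when cells detach, had the largest rise. It was at 3.532, 4.207 and 2.827 CPM in HR- LP, 35.82, 21.77 and 11.84 CPM in HR+ LP and 39.96, 32.32 and 14.34 CPM in ML. The lowest HR+ LP library was above the highest HR- LP library, and within HR+ LP and within ML the libraries spread widely, with replicate 3 lowest in both. Means were 3.522 ± 0.6901, 23.14 ± 12.05 and 28.87 ± 13.15 CPM (SD, n = 3). Bmf was 6.51-fold higher in HR+ LP than in HR- LP (log2 fold change 2.70, SE 0.45, adjusted p = 0.00111, edgeR) and 8.12-fold higher in ML than in HR- LP (3.02, SE 0.45, adjusted p = 0.000256). ML against HR+ LP gave 0.32 (SE 0.41, adjusted p = 0.901).

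The remaining 3 BH3-only genes were low and had no called difference. Bbc3 (gene ID 170770, chromosome 7, 16308398 to 16318334), the p53 target that encodes PUMA, was at 12.61, 12.34 and 8.838 CPM in HR- LP, 7.169, 9.383 and 10.57 CPM in HR+ LP and 5.292, 6.787 and 8.783 CPM in ML. ML lay below HR- LP with no overlap, though by a narrow gap at replicate 3, and HR+ LP overlapped both. ML against HR- LP gave a difference of -0.70 on the log2 scale (SE 0.27, adjusted p = 0.0528, edgeR), just short of a call. It was called lower by DESeq2 (-0.71, adjusted p = 0.0274), with scaling by size factors (0.0448), with a filter of over 1 CPM in at least 3 libraries (0.0444), with replicate numbers as a block (0.0467), without HR- LP replicate 3 (0.0255) and without ML replicate 3 (0.0378). The other differences of Bbc3 were -0.32 (SE 0.26, adjusted p = 0.398) for HR+ LP against HR- LP and -0.38 (SE 0.26, adjusted p = 0.699) for ML against HR+ LP.

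Pmaip1 (gene ID 58801, chromosome 18, 66458604 to 66465558), which encodes NOXA, a partner of MCL1, was at 7.83, 8.68 and 5.51 CPM in HR- LP, 13.85, 5.679 and 8.828 CPM in HR+ LP and 17.35, 6.319 and 8.429 CPM in ML. The populations overlapped, and replicate 1 was the highest library in HR+ LP and in ML. The log2 fold change of ML against HR- LP was 0.54 (SE 0.41, adjusted p = 0.326, edgeR), with the largest SE among the members not called. Bid (gene ID 12122, chromosome 6, 120893119 to 120917062), which links death receptors to mitochondria once cut by caspase 8, ranged from 12.17 to 15.95 CPM over the 9 libraries. Its means were 12.84 ± 1.091, 14.22 ± 1.502 and 13.66 ± 1.18 CPM (SD, n = 3), and its log2 fold changes were 0.15, -0.06 and 0.09 (SE 0.17 to 0.18, adjusted p 0.569, 0.971 and 0.712, edgeR). Of the Bid windows of 50 bases, 16.4% also occur in its neighbour Bcl2l13.

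To compare genes with each other, CPM was divided by the deposited gene length, giving CPM per kb. In HR- LP, Mcl1 was at 570.7 ± 37.39 CPM per kb, followed by Bcl2l1 (36.81 ± 6.436), Bax (27.79 ± 8.852), Bcl2l11 (27.45 ± 3.503), Bcl2 (16.4 ± 1.522), Bak1 (8.521 ± 2.451), Bid (6.79 ± 0.5767), Bbc3 (5.701 ± 1.066), Pmaip1 (2.766 ± 0.6182) and Bmf (0.7601 ± 0.149). Neighbours whose libraries overlapped were Bcl2l1 and Bax, Bax and Bcl2l11, and Bak1 and Bid. In HR+ LP, Mcl1 was at 235.9 ± 27.24 CPM per kb, Bax at 54.35 ± 11.28, Bcl2l1 at 37.41 ± 0.8135, Bak1 at 16.86 ± 1.185, Bcl2l11 at 16.23 ± 1.033 and Bid at 7.518 ± 0.7943. Bak1 and Bcl2l11 overlapped there, as did the 4 lowest in turn, Bcl2 (5.156 ± 0.3536), Bmf (4.995 ± 2.6), Bbc3 (4.575 ± 0.8734) and Pmaip1 (3.562 ± 1.553). In ML, Mcl1 was at 106.0 ± 16.48 CPM per kb, Bax at 60.05 ± 16.52, Bcl2l1 at 35.8 ± 2.943, Bak1 at 19.41 ± 1.246 and Bcl2l11 at 10.88 ± 1.799. Next came Bid (7.223 ± 0.6239), Bmf (6.232 ± 2.839), Pmaip1 (4.032 ± 2.207) and Bbc3 (3.519 ± 0.8862), each overlapping the next, and Bcl2 was last at 0.1415 ± 0.07335. So Bcl2 moved from the fifth place in HR- LP to the last in ML, and Bmf left the last place.

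Within the 10 genes, guards held a smaller share of the RNA, and effectors a larger one, in HR+ LP than in HR- LP and in ML than in HR+ LP. Of the summed CPM per kb of the 10 genes, the 3 pro-survival genes held 88.63% ± 1.627 in HR- LP, 71.98% ± 1.793 in HR+ LP and 55.99% ± 2.522 in ML (SD, n = 3). The effectors held 5.192% ± 1.738, 18.39% ± 1.744 and 31.18% ± 2.712, and the BH3-only genes 6.18% ± 0.3835, 9.624% ± 1.489 and 12.83% ± 3.53. Mcl1 alone accounted for 81.05% ± 2.574, 60.92% ± 2.258 and 41.71% ± 2.247. Within the pro-survival group the share of Bcl2l1 went from 5.938% to 13.51% to 25.39%, although its own level was not called different. Within the BH3-only group Bcl2l11 went from 62.99% to 44.14% to 34.17% and Bmf from 1.757% to 13.32% to 19.02%. A share moves when any other member moves, so these are descriptions without a test. They describe the 10 genes and not the whole family. Outside them were, among others, Bcl2l2 (21.49, 27.16 and 28.24 CPM per kb in HR- LP, HR+ LP and ML), Bik (22.17, 32.02 and 32.15) and Bad (13.95, 18.29 and 17.94).

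**Figure D3:**
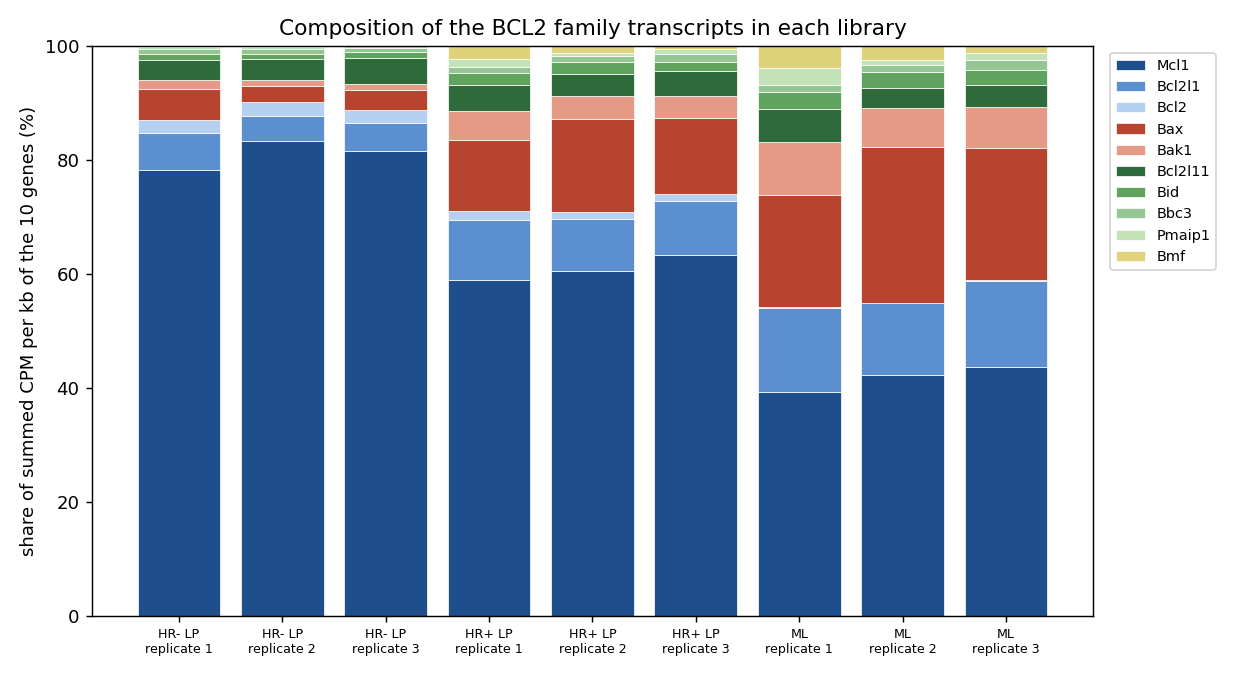
Each bar is 1 library and its height is the summed CPM per kb of the 10 genes set to 100%, with pro-survival genes in blue, effectors in red, and BH3-only genes in green with Bmf in yellow. The dark blue Mcl1 block shrinks from 78.27 to 83.35% in HR- LP to 39.23 to 43.61% in ML, and the red effector blocks widen from 3.762 to 7.126% to 28.97 to 34.2%.

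Ratios within a library do not depend on scaling between libraries. The ratio of Mcl1 to Bcl2l1, per length, was 15.89 in HR- LP, 6.299 in HR+ LP and 2.955 in ML (means over 3 libraries, log2 3.97 ± 0.33, 2.65 ± 0.15 and 1.56 ± 0.17). The ratio of Bax to Bcl2l1 passed from below 1 in all HR- LP libraries (log2 -0.44 ± 0.21) to above 1 in all HR+ LP (0.52 ± 0.30) and ML libraries (0.71 ± 0.36). Bcl2l11 exceeded Bmf 37.48-fold in HR- LP, 4.044-fold in HR+ LP and 2.041-fold in ML. Bax to Bak1 averaged 3.249, 3.255 and 3.12, with single libraries from 2.366 to 3.99 in HR+ LP and from 2.116 to 3.982 in ML (log2 1.70 ± 0.15, 1.67 ± 0.39 and 1.59 ± 0.47).

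**Figure D4:**
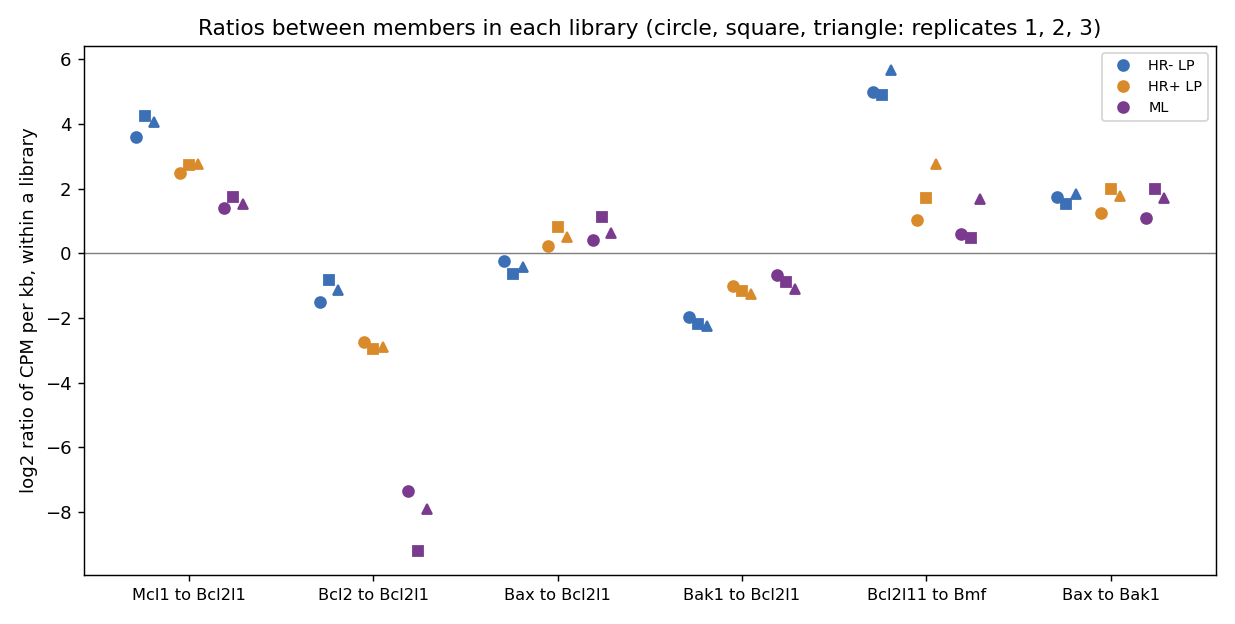
The vertical axis is the log2 ratio of CPM per kb of 2 genes in 1 library, with blue, orange and purple for HR- LP, HR+ LP and ML and symbols for replicates. Mcl1 to Bcl2l1 and Bcl2 to Bcl2l1 step down, Bax to Bcl2l1 crosses 0, and Bax to Bak1 stays near 1.6 to 1.7 on average.

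Where HR+ LP stood between the other populations was tested as its log2 level against the mean of the log2 levels of both others. A mean of CPM lies higher than this midpoint, so a place above the midpoint refers to the log2 scale. Bcl2 was called higher than that midpoint (log2 difference 1.78, SE 0.23, adjusted p = 0.000914, edgeR), since its step to ML was much larger than its step from HR- LP. Of the 10 members, only Bcl2 was called in this fit, where 6.01% of tested genes were called, 5.97% higher and 0.0377% lower. All 6 hormone-sensing markers and 4 of the 5 alveolar progenitor markers were also called higher, so a place above the midpoint was not particular to Bcl2. Mcl1 lay almost on the midpoint (-0.06, adjusted p = 0.959). Bmf was 1.19 above it (SE 0.35, adjusted p = 0.0814) and Bak1 0.39 above it (adjusted p = 0.277), without passing the test. Bmf was called by DESeq2 (1.15, adjusted p = 0.0238), with no filter on low counts (1.20, adjusted p = 0.0447), with replicate numbers as a block (1.14, adjusted p = 0.00701) and without HR+ LP replicate 3 (1.51, adjusted p = 0.0281). Bak1 was called without HR- LP replicate 1 (0.52, adjusted p = 0.0135).

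For the 3 members with the widest range, the genes most like them were sought among 9171 candidates, by the root mean square difference of centred log2 CPM over the 9 libraries. For Bcl2, whose group means spanned 6.97 on the log2 scale, these were Map2 (0.22), a microtubule-binding protein, Clic6 (0.245), a chloride intracellular channel family member, and Fads1 (0.284), a fatty acid desaturase. Map2 was at 281.8 ± 22.03, 95.69 ± 5.557 and 2.794 ± 1.461 CPM. For Mcl1 they were Osgin1 (0.12), Csrnp1 (0.125) and the ephrin receptor Epha7 (0.152), with Csrnp1 at 1301 ± 185.6, 532.9 ± 72.73 and 210.7 ± 17.81 CPM. For Bmf the nearest were less close: the mannosidase Man1c1 (0.377), Cutal (0.38) and the complement gene C2 (0.382), with Man1c1 at 8.896 ± 2.69, 55.93 ± 9.602 and 72.29 ± 12.65 CPM.

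Other genes of the pathway were taken from 7 lists. Of all tested genes, edgeR called 17.2% higher and 12.8% lower in HR+ LP against HR- LP. The shares were 0.0943% and 6.70% in ML against HR+ LP, and 23.3% and 21.3% in ML against HR- LP. The counts of each list below stand beside these shares and were not tested against them. In ML against HR+ LP, where so few genes were called higher, no gene of these lists was, by edgeR (also at an unadjusted p under 0.05), DESeq2 or limma voom. Of 15 other BCL2 family genes 11 were tested, and 3 were higher and 0 lower in HR+ LP against HR- LP (1 lower by DESeq2), 0 and 0 in ML against HR+ LP (1 lower at an unadjusted p under 0.05), and 4 and 3 in ML against HR- LP (edgeR, adjusted p under 0.05). The medians of their log2 fold changes were 0.39, 0.01 and 0.40. Bcl2l14, which encodes the less studied family member BCL-G, rose from 8.285 ± 2.067 to 37.12 ± 8.884 and 42.15 ± 6.451 CPM (ML against HR- LP 2.35, adjusted p = 1.47e-05). Bnip3, a BH3-like gene of mitophagy, rose from 6.199 ± 2.695 to 16.41 ± 4.506 and 21.77 ± 5.367 CPM (1.81, adjusted p = 0.00105). Of the 3 genes called lower, Bcl2a1d, Bcl2l13 and Bcl2l15, none was called in every fit that left out 1 library, and 3 of the 4 called higher were. Bcl2a1d, a guard of blood cells and 1 of several near-identical copies, so that its counts are uncertain, had 27, 15 and 31 counts in HR- LP, 24, 0 and 18 in HR+ LP and 0 in each ML library. Its ML level was at least 23.96-fold below the HR- LP mean of 0.6026 CPM, taking 3 counts over the ML group as the floor. The bound leaves out the spread of that mean (SD 0.4804 CPM). Hrk had no count in any library.

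Downstream of the mitochondria, the 13 genes of the apoptosome and caspases gave 2 higher and 1 lower in HR+ LP against HR- LP (2 and 3 by DESeq2 and by limma voom), 0 and 0 in ML against HR+ LP, and 3 and 3 in ML against HR- LP, with medians of 0.15, 0.04 and 0.24. Of the 3 and 3, 2 and 2 were called in every fit that left out 1 library, without Aifm1 and Cycs. The partners of the apoptosome differed in direction. Casp9, the initiator caspase, was at 11.61 ± 2.941, 29.23 ± 5.28 and 35.23 ± 5.266 CPM (1.33, adjusted p = 0.00104, for HR+ LP against HR- LP and 1.60, adjusted p = 0.000135, for ML against HR- LP). Apaf1, its scaffold, was at 28.66 ± 3.809, 16.35 ± 1.114 and 13.33 ± 2.19 CPM (-0.81, adjusted p = 0.00576, and -1.11, adjusted p = 0.000451). In ML against HR- LP, Dffa, the inhibitor of the DNA-cutting nuclease, rose by 0.89 (adjusted p = 0.000749) and Dffb, the nuclease, fell by 1.10 on the log2 scale (adjusted p = 0.00416).

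Of 5 IAP genes, whose proteins hold caspases or death receptor complexes in check, 2 were higher and 0 lower in ML against HR- LP, namely Birc2 (0.66, adjusted p = 0.00207) and Birc6 (1.05, adjusted p = 0.00782). In HR+ LP against HR- LP 1 was higher, Birc6 (0.89, adjusted p = 0.0263), a call that did not hold in every fit that left out 1 library, and in ML against HR+ LP none was called in either direction. Of 4 genes that link death receptors to BID, 1 was higher and 0 lower in each comparison with HR- LP, and 0 in ML against HR+ LP. It was Casp8, which cuts BID, at 29.58 ± 1.984, 47.18 ± 3.984 and 53.83 ± 1.38 CPM (0.67, adjusted p = 0.00246, and 0.86, adjusted p = 0.000227). Medians were 0.06, 0.16 and 0.12 for the IAP genes and 0.25, 0.17 and 0.38 for the death receptor link.

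Among 10 genes for partners and turnover of BCL2 proteins, 1 was higher and 1 lower in HR+ LP against HR- LP, 0 and 1 in ML against HR+ LP, and 2 and 3 in ML against HR- LP, with medians of -0.09, 0.02 and -0.14. Of the 2 and 3, only 1 and 1, Vdac1 and Fbxw7, were called in every fit that left out 1 library. Fbxw7, a ubiquitin ligase subunit that marks MCL1 for destruction, stepped down from 103.0 ± 3.237 to 57.77 ± 1.354 and 34.49 ± 4.298 CPM, that is in the same direction as Mcl1. Its log2 fold changes were -0.83 (adjusted p = 0.000633), -0.74 (adjusted p = 0.00283) and -1.58 (adjusted p = 2.56e-06). Vdac1, the outer membrane channel, went up from 139.1 ± 21.01 to 314.4 ± 21.24 and 388.3 ± 26.81 CPM (1.18, adjusted p = 0.000153, and 1.48, adjusted p = 9.78e-06, against HR- LP).

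Of 10 genes of p53 and its targets, 2 were higher and 2 lower in HR+ LP against HR- LP, 0 and 2 in ML against HR+ LP, and 4 and 3 in ML against HR- LP, with medians of 0.39, 0.17 and 0.48. Zmat3 rose from 8.173 to 39.19 and 54.86 CPM (ML against HR- LP 2.75, adjusted p = 5.93e-06) and Ccng1 from 48.9 to 91.26 and 114.9 CPM (1.23, adjusted p = 0.000306). Cdkn1a, the cell cycle inhibitor p21, fell from 404.7 ± 87.21 to 180.2 ± 38.54 and 94.94 ± 10.25 CPM (-2.09, adjusted p = 1.23e-05), and Sesn2 from 63.89 to 33.84 and 17.47 CPM (-1.87, adjusted p = 5.45e-05). Trp53 itself, which encodes p53, was lower in ML than in HR- LP (-0.57, adjusted p = 0.027, edgeR), a call that did not hold in every fit that left out 1 library. Of the 4 genes called higher in ML against HR- LP, 3 were called in every such fit, without Eda2r. Neither of the calls of Cdkn1a and Sesn2 between HR+ LP and ML held in every fit that left out 1 library.

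The 6 genes of the integrated stress response and of the FOXO factors, which can switch on Bcl2l11, Bbc3 and Pmaip1, gave 0 higher and 3 lower in HR+ LP against HR- LP, 0 and 2 in ML against HR+ LP, and 0 and 5 in ML against HR- LP, with medians of -0.86, -0.81 and -1.71. Atf4, the main factor of that response, was at 810.5 ± 56.3, 367.3 ± 47.73 and 208.2 ± 28.27 CPM, with log2 fold changes of -1.14, -0.82 and -1.96 (adjusted p = 0.000261, 0.00485 and 2.02e-06, edgeR). Foxo1, a forkhead factor, was at 167.2 ± 38.06, 74.88 ± 10.55 and 37.91 ± 3.508 CPM, with -1.16, -0.98 and -2.14 (adjusted p = 0.000836, 0.00546 and 4.64e-06). Ddit3, which encodes CHOP, and Foxo3 were lower by 1.83 and 1.59 in ML than in HR- LP (log2 fold changes -1.83 and -1.59, adjusted p = 0.000122 and 0.00102, edgeR). Of the 5 genes called lower in ML against HR- LP, 4 were called in every fit that left out 1 library, without Trib3. Several of the 6 genes also respond to stress during tissue handling, and the dissociation sums given above also fell from HR- LP to HR+ LP to ML. Within HR- LP those sums were 63080, 56140 and 38700 CPM in replicates 1, 2 and 3, where the 6 genes summed to 1124, 1164 and 1165 CPM. The part of tissue handling in these differences was not tested.

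**Figure D5:**
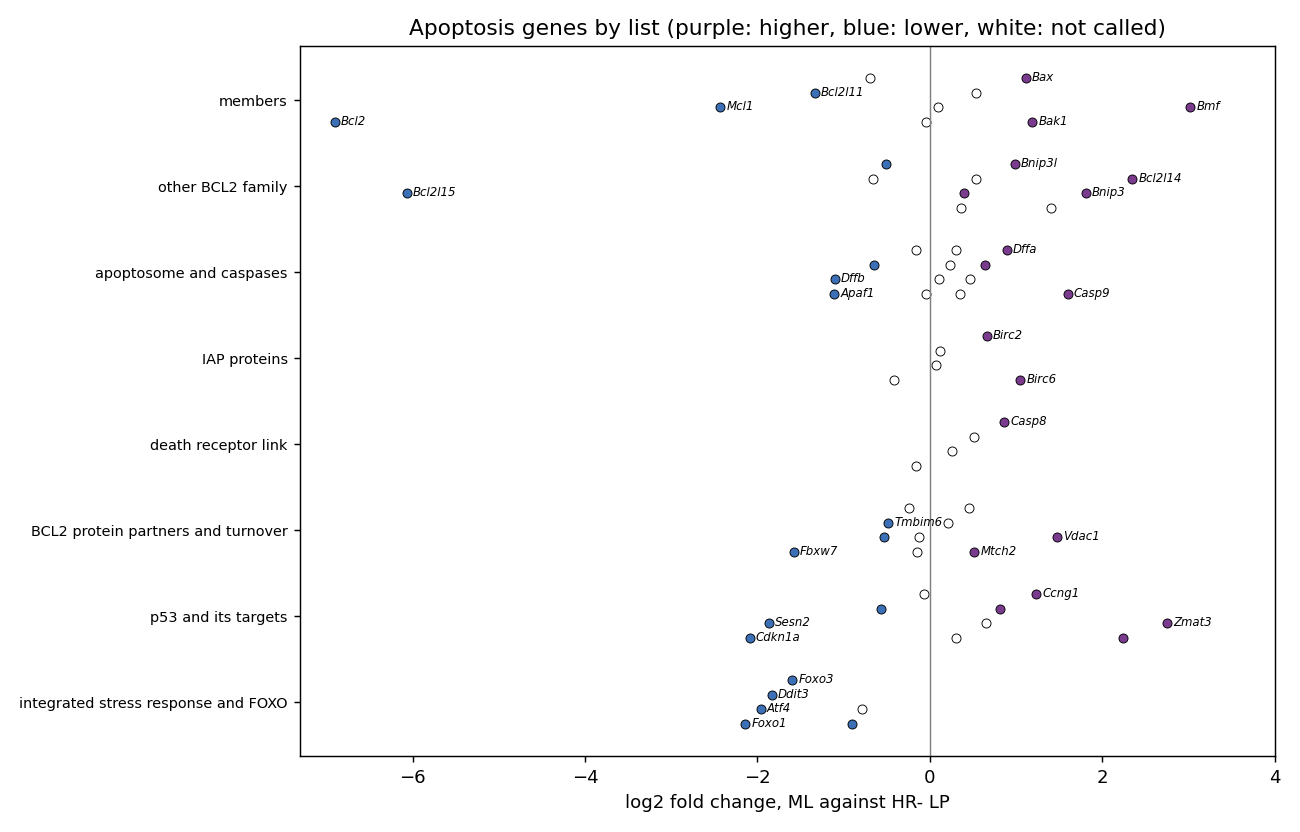
Each row is a gene list and each point a tested gene, placed by its log2 fold change in ML against HR- LP, with purple for called higher, blue for called lower and white for not called. Bcl2a1d, with no count in ML, is left off the axis; the points of the integrated stress response and FOXO list all lie left of 0, and the other lists have points on both sides.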

How the data were processed

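For each of 9 libraries the authors deposited unnormalized read counts by gene, with a gene length. Per the submitters' processing notes the counts came from featureCounts on mm10; the aligner and annotation are not given in the sources used here. Per the labels' protocols, at least 50 ng of DNase-treated RNA went into each TruSeq RNA v2 library. That kit does not mark strand, so overlapping genes cannot be told apart by strand. Sample files and series table differed in 0 cells. Symbols and positions came from RefSeq (GRCm38.p6), which matched 25275 of 27179 genes.

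Genes were filtered with filterByExpr by population and scaled by TMM. All 9 libraries were fitted together in edgeR 4.0.16 (R 4.3.3) with no covariate. Quasi-likelihood F tests were adjusted by Benjamini-Hochberg over 15910 genes and called at 0.05. SE is the absolute log2 fold change over the square root of F. Alternatives used DESeq2 1.42.0, limma 3.58.1, other scalings and filters, a replicate block, only the groups compared, and each library left out. Likeness used log2 CPM with a prior count of 2. Python 3.11.15 and matplotlib 3.10.9 drew the plots. The fit was also run on counts simulated from each gene's mean CPM over the 9 libraries and its estimated spread. Rises were put into some genes in HR+ LP, and no other differences between populations. Such counts cannot show whether the model suits these data.

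Named genes were all 10 members and, from each pathway list, those with the smallest p, at most 4 for ML against HR- LP and 2 for each other comparison. Some further genes are named only to give a limit. The members and lists were chosen with earlier results of these data known. The labels do not say that replicate numbers pair libraries, and the main fit held no term for them. Deviations of same-numbered libraries from their population means had correlations across genes of 0.183, 0.121 and 0.189 between HR+ LP and ML. Libraries with different numbers were not compared, so these values do not settle a pairing, and the replicate block was an alternative. The correlations were 0.133, 0.0389 and 0.147 between HR+ LP and HR- LP, and 0.0526, 0.0254 and 0.0849 between ML and HR- LP.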

Additional observations from a re-analysis of the deposited data

How the results depend on the processing

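Of the 15 calls of members between populations, 13 were kept under all 17 alternatives; the exceptions, Bax in HR+ LP against HR- LP and Bcl2l11 in ML against HR+ LP, are given with the report's values. The count of all genes called higher in ML than in HR+ LP, 15, became 88 with DESeq2, 30 with library totals alone, 50 with limma voom, 71 with the replicate block and 216 with only the groups compared, so the background of this direction is uncertain, but 0 of the 10 members were called higher under these. Against the midpoint, 1 member was called higher and 2 with DESeq2, with no filter or with the replicate block; all genes called lower, 6, became 51 with DESeq2 and 13 with the replicate block. The block called 1 further member, Bbc3 in ML against HR- LP, and changed no other member's call between populations. Library totals alone gave 3182 higher and 1535 lower genes in HR+ LP against HR- LP (2731 and 2033 with TMM) and 4463 and 2801 in ML against HR- LP (3700 and 3389), and moved the median of all genes to 0.12 and 0.19; no call of a member reversed.

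Signs turned only for members not called. In HR+ LP against HR- LP, Bcl2l1 was -0.0276 with DESeq2, -0.0277 with size factors and -0.0048 with the CPM filter; in ML against HR- LP it was 0.11 with library totals alone. Against the midpoint, Bbc3 was -0.014 with DESeq2, -0.013 with size factors and -0.0319 with limma voom. Pmaip1 in ML against HR+ LP was -0.0282 with limma voom. Leaving out 1 library gave ranges of -0.0686 to 0.3261 (Bax), -0.1284 to 0.032 (Bid) and -0.36 to 0.56 (Pmaip1) in ML against HR+ LP, -0.0593 to 0.1789 (Bcl2l1) and -0.0176 to 0.6263 (Pmaip1) in HR+ LP against HR- LP, -0.12 to 0.11 (Bcl2l1) in ML against HR- LP, and -0.10 to 0.17 (Bbc3), -0.1302 to 0.0307 (Mcl1) and -0.29 to 0.36 (Pmaip1) against the midpoint.

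Leaving out each library in turn, members called ranged from 2 to 3 higher and 3 to 3 lower in HR+ LP against HR- LP, 2 to 3 lower in ML against HR+ LP, 3 to 3 higher and 3 to 4 lower in ML against HR- LP, and 1 to 2 higher against the midpoint. All genes called ranged from 1982 to 3222 higher and 1211 to 2290 lower, 4 to 63 and 802 to 1175, 2835 to 4073 and 2798 to 3585, and 564 to 1154 and 2 to 14. Depth limits Bcl2 in ML, at 22 to 53 counts per library, and Bcl2a1d and Bcl2l15, and the 3 libraries per population limit the rest.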
